A study of Mus musculus with 6 samples.

Results

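The genes described here are 42 genes of DNA replication and S phase, taken by symbol from the 23091 gene symbols of the files. They fell into 6 groups by role, with 11 genes of licensing and the helicase, 15 of fork enzymes, 5 of nucleotide supply, 3 of chromatin behind the fork, 4 of repair at forks and 4 of the G1/S regulators. Levels are FPKM, the authors' fragment values per length of transcript and per size of library, each with a deposited lower and upper bound, called its interval here.

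Naive CD4 T cells from spleen and lymph nodes of 7-week-old wild-type C57/Bl6j mice were turned in culture into Th9 cells, helper T cells named for the interleukin 9 they secrete. Antibodies to CD3 and CD28 coated the plates, and all cells had 20 ng/ml IL-4, 2 ng/ml TGFb and an antibody that blocks IFNgamma. The libraries called with IL-1β also had 10 ng/ml of IL-1β, an inflammatory cytokine, and the libraries called without IL-1β had none. There were 6 libraries in 6 groups of 1: cells with and without IL-1β after 1 h, after 3 days, and in vivo. The last 2 libraries were of injected cells: CD45.2 cells cultured for 3 days went into CD45.1 mice and were sorted 1 week later. RNA came from 300000 cells. The 1 h libraries were made from rRNA-depleted RNA and the other 4 from poly(A) RNA. The sources used here do not say how many mice stand behind a library or which tissue the in vivo cells came from.

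With 1 library in a group there is no replicate check, so no p-value, SD or SE goes with any comparison within a stage. A gene was compared where at least 1 of the 2 libraries reached 5 FPKM. A call of higher or lower needed a 2-fold ratio of FPKM + 1, a log2 ratio of 1, and 2 intervals that did not overlap. All log2 ratios are of FPKM + 1, which understates the ratio of low genes. Read depth is unknown and shows only through the intervals, whose median half-width over the 42 genes was 26.8% of the FPKM with IL-1β and 20.2% without it in vivo, and 18.1% and 16.9% at day 3. In the 1 h libraries few genes were measured at all: 765 genes reached 5 FPKM with IL-1β and 631 without it, and Gapdh, a gene that every cell uses, was listed at 0 with IL-1β and at 0.99 FPKM without it. A value of 0 at 1 h is therefore given as listed at 0 and nothing is read from it. All 9 T cell markers, among them Cd3e and Cd4, were above 0 in every library.

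Before a cell copies its DNA, the proteins Cdc6 and Cdt1 load the ring of Mcm2 to Mcm7 onto origins, and the GINS complex and Mcm10 help turn the ring into a moving helicase. Polymerases, the Pcna clamp and its Rfc loader, and Rpa on single strands then copy both strands, while Rrm1, Rrm2, Tk1, Tyms and Dut keep up the supply of deoxynucleotides. E2F factors switch these genes on as a cell goes from G1 into S phase, a step that cyclin E drives, and antigen receptor and CD28 signals send resting T cells into that cycle. In bulk RNA, fewer cells in S phase and less RNA per cell cannot be told apart.

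In vivo, the replication genes were lower in cells that had been cultured with IL-1β. The 42 genes summed to 1217 FPKM with IL-1β and 2168 FPKM without it, a ratio of 0.561, and 41 of the 42 had the lower value with IL-1β. Of 40 genes compared, 12 were called lower, or 30.0%, against 3.48% of all 8639 genes compared, and 0 were called higher, against 6.23%. The median log2 ratio of the 40 was -0.76, against 0.03 over all genes. Markers of other cells differed between the same 2 libraries: those of epithelium and stroma summed to 17163 FPKM with IL-1β and 6613 FPKM without it, and myeloid markers to 2204 with and 913 FPKM without it. Scaling the libraries to their T cell markers raises the median of all genes to 0.23. With that scaling, 7 of the replication genes were called lower, against 2.22% of all genes, and their median was -0.58. The part of RNA from other cells in these ratios was not tested. At day 3, before injection, the sums were 2331 FPKM with IL-1β and 2466 FPKM without it. There, 2 of 41 genes were called lower, against 2.15% of 7962 genes, and 0 higher, against 1.29%. The median was -0.15, against -0.05 over all genes. Whether the IL-1β ratios differ between stages was not tested, since each stage has 1 library in an arm. At 1 h the sums were 40.9 FPKM with IL-1β and 21.0 FPKM without it, only Pcna could be compared, and 0 genes were called, against 7.72% of 933 genes called higher and 0.214% called lower.

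**Figure D1:**
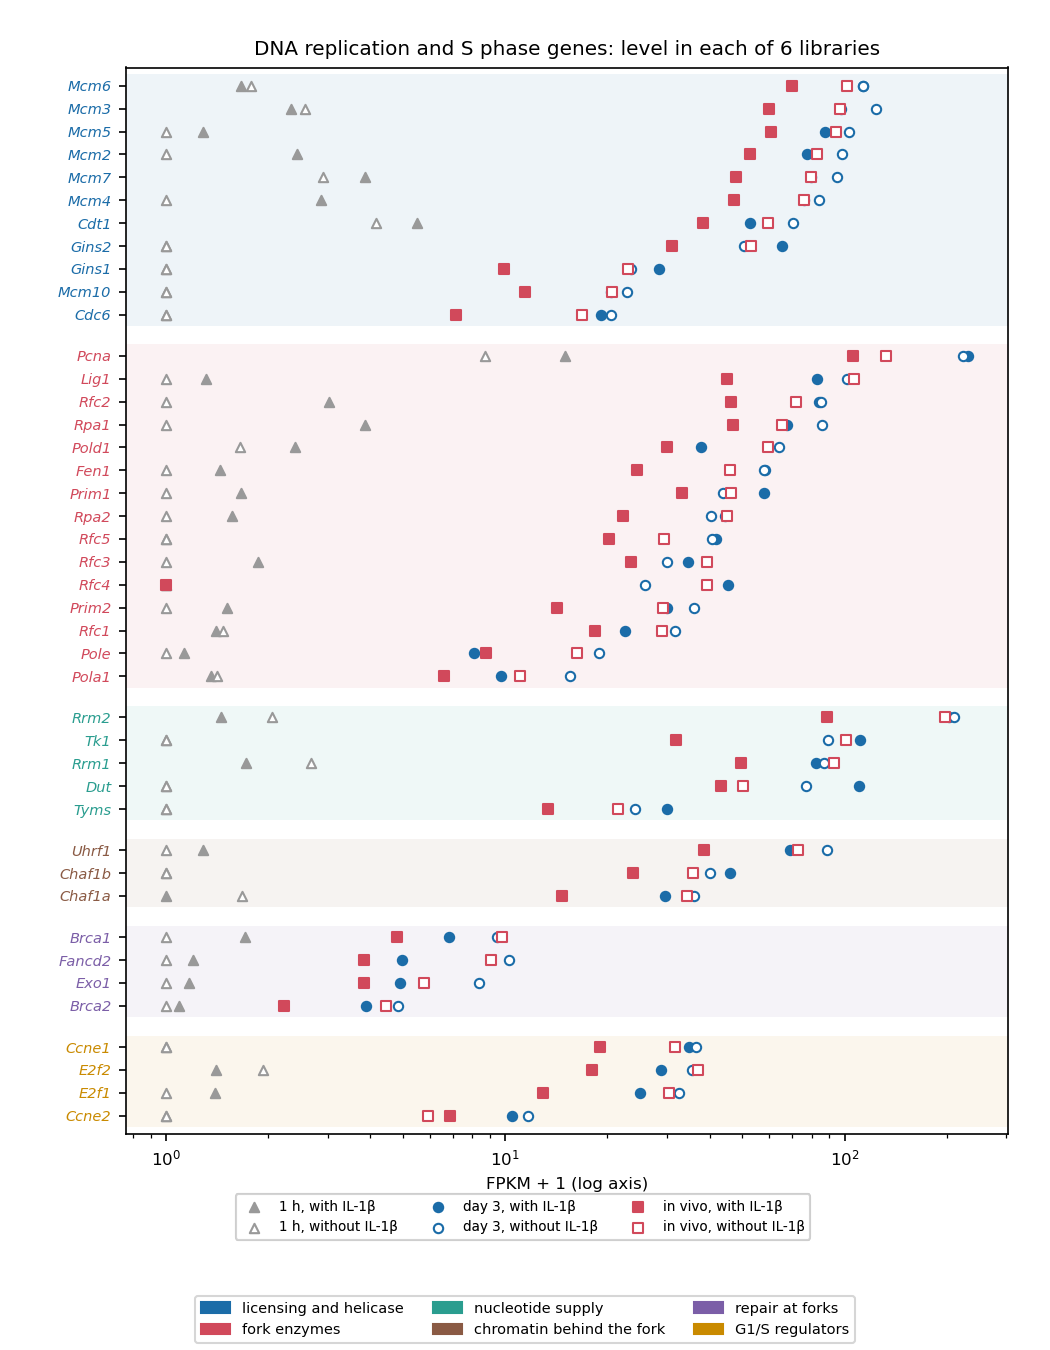
FPKM + 1 on a log axis for each of the 42 genes (rows, grouped by role and ordered by mean level) in each of the 6 libraries (points; filled with IL-1β, open without it). The in vivo library with IL-1β lies lowest of the 4 poly(A) libraries for most genes, the 1 h libraries lie near the left edge, and Rfc4 is listed at 0 in vivo with IL-1β.

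The plot of levels by library shows the wide range within the set. At day 3 without IL-1β, for one, the genes lay between 221.9 FPKM for Pcna and 3.82 FPKM for Brca2. At 1 h, 13 of the 42 were listed at 0 with IL-1β and 30 without it.

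Among the genes of licensing and the helicase, 1 of 11 was called lower in vivo with IL-1β, Cdc6, against 3.48% of all genes. The median log2 ratio of the 11 was -0.69. The 6 subunits of the Mcm ring kept close to one another. Mcm6 had 0.67 FPKM at 1 h, 112 at day 3 and 69.2 in vivo with IL-1β, and 0.78, 112 and 101 FPKM without it. Mcm3 had 1.34, 96.6 and 59.0 FPKM at the same stages with IL-1β, and 1.57, 123 and 96.1 FPKM without it. Mcm5 had 0.28, 86.4 and 59.7 FPKM with IL-1β, and 0, 102 and 93.2 FPKM without it. Each of these had its lowest poly(A) value in vivo with IL-1β, and at day 3 Mcm6 was level between the arms. Mcm2 had 1.43, 76.5 and 51.7 FPKM with IL-1β, and 0, 97.0 and 81.9 FPKM without it. In vivo the log2 ratios of the 6 subunits spanned -0.73 for Mcm7 and -0.53 for Mcm6, so none reached the 2-fold rule although all 6 pairs of intervals were apart. The mean of the 6 was 55.5 FPKM with IL-1β and 87.6 FPKM without it in vivo, and 87.6 with and 102 FPKM without it at day 3. In each library the highest subunit was close to the lowest: the ratio of the 2 was 1.50 with and 1.34 without IL-1β in vivo, and 1.49 with and 1.48 without it at day 3. Mcm4 was the lowest subunit in all 4 poly(A) libraries.

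The loader Cdc6 was called lower in vivo, with 6.16 FPKM in the IL-1β arm and 15.8 FPKM without it, a log2 ratio of -1.23. At day 3 it had 18.2 FPKM with IL-1β and 19.5 FPKM without it, and it was listed at 0 in both 1 h libraries. Its partner in loading, Cdt1, had 37.3 FPKM with IL-1β and 58.5 FPKM without it in vivo, a log2 ratio of -0.64 that was not called. The ratio of Cdt1 to Cdc6 was thus 6.05 with IL-1β and 3.70 without it in vivo, and 2.85 with and 3.57 without it at day 3. Mcm10 and the GINS subunits Gins1 and Gins2 stayed uncalled. Gins1 had 8.89 FPKM with IL-1β and 22.0 FPKM without it in vivo, a log2 ratio of -1.21, but its intervals, 2.43 to 16.2 and 13.0 to 31.0 FPKM, overlapped.

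Promoters of several of these genes are shown because they share an element that the choice of genes did not use, and those of Mcm2 and Tk1 because they hold no match to it. The sequences are RefSeq's on GRCm38.p6, 250 bases before to 50 after the annotated start, 5′ to 3′ on the strand of the gene, and capitals mark matches to the E2F motif.
Mcm2 (chr6:88898731-88899030, minus strand): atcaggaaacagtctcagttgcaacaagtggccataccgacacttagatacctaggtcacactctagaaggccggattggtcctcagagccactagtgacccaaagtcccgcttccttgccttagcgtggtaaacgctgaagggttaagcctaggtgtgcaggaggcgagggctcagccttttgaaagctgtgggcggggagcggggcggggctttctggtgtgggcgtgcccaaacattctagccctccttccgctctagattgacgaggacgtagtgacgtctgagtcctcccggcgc
Mcm3 (chr1:20820263-20820562, minus strand): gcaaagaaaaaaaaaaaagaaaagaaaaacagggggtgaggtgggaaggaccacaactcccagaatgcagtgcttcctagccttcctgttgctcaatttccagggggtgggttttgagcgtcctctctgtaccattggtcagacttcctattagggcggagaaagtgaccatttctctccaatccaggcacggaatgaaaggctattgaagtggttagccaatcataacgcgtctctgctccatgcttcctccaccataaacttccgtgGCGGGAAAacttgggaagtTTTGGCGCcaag
Mcm5 (chr8:75109259-75109558, plus strand): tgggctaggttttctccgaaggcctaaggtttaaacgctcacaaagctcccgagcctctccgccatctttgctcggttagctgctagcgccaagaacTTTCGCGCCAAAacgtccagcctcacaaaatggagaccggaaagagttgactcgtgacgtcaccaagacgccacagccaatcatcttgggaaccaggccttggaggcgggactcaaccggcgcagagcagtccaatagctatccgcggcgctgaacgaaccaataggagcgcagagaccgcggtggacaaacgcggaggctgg
Mcm6 (chr1:128359656-128359955, minus strand): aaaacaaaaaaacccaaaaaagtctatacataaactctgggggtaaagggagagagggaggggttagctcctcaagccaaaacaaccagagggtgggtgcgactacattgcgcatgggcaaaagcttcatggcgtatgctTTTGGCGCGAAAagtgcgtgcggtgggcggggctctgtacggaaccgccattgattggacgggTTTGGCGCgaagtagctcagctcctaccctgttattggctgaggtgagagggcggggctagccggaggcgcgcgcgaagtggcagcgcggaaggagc
Mcm7 (chr5:138171834-138172133, minus strand): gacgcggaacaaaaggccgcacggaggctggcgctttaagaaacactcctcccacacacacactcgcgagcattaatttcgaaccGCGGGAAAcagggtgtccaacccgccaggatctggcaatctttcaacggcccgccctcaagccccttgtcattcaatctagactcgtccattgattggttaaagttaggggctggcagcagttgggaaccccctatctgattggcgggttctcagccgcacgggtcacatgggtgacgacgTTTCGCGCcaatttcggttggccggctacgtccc
Cdc6 (chr11:98907901-98908200, plus strand): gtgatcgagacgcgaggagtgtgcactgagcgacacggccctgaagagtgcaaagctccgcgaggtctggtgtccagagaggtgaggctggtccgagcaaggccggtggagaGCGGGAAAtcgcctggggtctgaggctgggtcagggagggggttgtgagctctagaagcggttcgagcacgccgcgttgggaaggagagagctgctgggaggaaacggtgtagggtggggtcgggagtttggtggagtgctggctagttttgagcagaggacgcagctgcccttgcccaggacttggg
Tk1 (chr11:117825965-117826264, minus strand): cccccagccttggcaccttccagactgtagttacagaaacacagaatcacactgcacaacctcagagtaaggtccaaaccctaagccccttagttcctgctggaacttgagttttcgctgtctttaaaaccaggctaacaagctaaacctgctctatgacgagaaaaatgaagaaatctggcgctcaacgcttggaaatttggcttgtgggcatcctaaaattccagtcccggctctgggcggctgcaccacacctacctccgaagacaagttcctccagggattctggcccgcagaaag
The E2F motif was TTT, then 2 bases each C or G, then CGC, on either strand. Mcm3 holds 2 matches, Mcm5 2 that overlap, Mcm6 3 of which 2 overlap, the Mcm7 promoter shown (1 of 2 in the table) 2, and Cdc6 1. They lie between 165 bases before and 46 bases after the start.

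A promoter was in the table for 33 of the 42 genes, several for 5 of them. An E2F match stood in a promoter of 13 of the 33 genes, or 39.4%, against 3.29% of 17492 protein-coding genes and 2.26% of all 32851 promoters. By role it stood in 6 of 8 genes of licensing and the helicase, 4 of 12 fork enzymes and 0 of 5 genes of nucleotide supply. The NF-Y motif CCAAT was in 19 of the 33, or 57.6%, against 42.3% of protein-coding genes and 37.4% of all promoters, and CHR, the cell cycle element TTTGAA, in 3 of the 33, or 9.09%, against 18.5% and 17.9%. Of the mitosis genes Mki67, Ccnb2 and others, 10 of 11 held CCAAT, 7 of 11 TTTGAA and 1 of 11 the E2F motif. In the promoters shown, matches of different motifs overlap only in Mcm7, where the E2F match after the start shares its last base with a CCAAT match. In vivo, the 12 compared genes with an E2F match had a median IL-1β log2 ratio of -0.75, with 3 called lower. The 20 with a promoter but no match had -0.79, with 7 called lower. The 8 compared genes that had no promoter to search had -0.83, with 2 called lower. Of all genes compared in vivo, 3.48% were called lower. A match is a string of letters, not a site shown to be used, and its absence says only that these letters are not in this window.

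**Figure D2:**
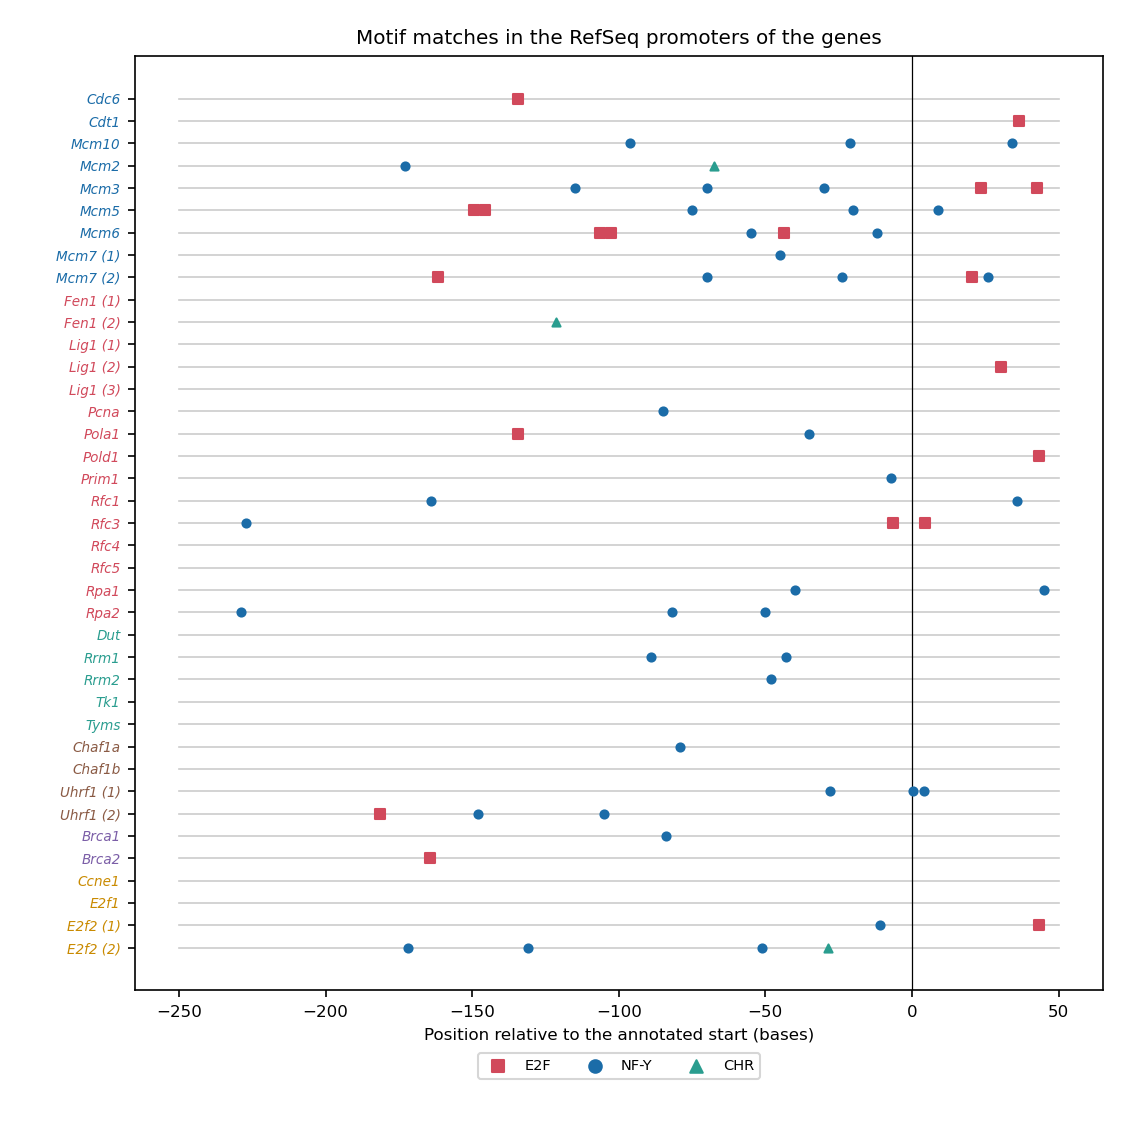
Position in bases relative to the annotated start (horizontal axis) of matches to the E2F (squares), NF-Y (circles) and CHR (triangles) motifs in each RefSeq promoter of the 33 genes (rows; numbers mark several promoters of a gene). E2F squares cluster in the upper rows, the genes of licensing and the helicase, and are missing from the 5 genes of nucleotide supply.

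The map of motif matches shows no single position that the E2F matches share: Cdc6, Mcm5 and Pola1 hold theirs upstream of the start, and Cdt1, Mcm3 and Pold1 downstream.

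Among the fork enzymes, 4 of 15 were called lower in vivo with IL-1β, Lig1, Rpa2, Prim2 and Rfc4, against 3.48% of all genes. The median log2 ratio was -0.75. Lig1, the ligase that joins Okazaki fragments, had 0.31 FPKM at 1 h, 82.0 at day 3 and 43.9 in vivo with IL-1β, and 0, 101 and 105 FPKM without it, with a log2 ratio of -1.24 in vivo. Rpa2, a subunit of the single-strand binding protein, had 0.56, 43.3 and 21.2 FPKM with IL-1β, and 0, 39.3 and 43.9 FPKM without it. Prim2, a subunit of primase, had 0.51, 29.0 and 13.2 FPKM with IL-1β, and 0, 35.0 and 28.1 FPKM without it. In all of these the in vivo library with IL-1β was the lowest of the 4 poly(A) libraries, and the other 3 lay near one another. Partners within a complex were not all called: Rpa1 had 2.86, 66.6 and 46.0 FPKM with IL-1β, and 0, 84.7 and 64.3 FPKM without it, and Prim1 had 32.2 FPKM with IL-1β and 45.4 FPKM without it in vivo.

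Pcna, the sliding clamp and the highest of the fork enzymes, differed least among the fork enzymes in vivo. It had 14.0, 230.0 and 105.2 FPKM with IL-1β, and 7.72, 221.9 and 131.9 FPKM without it, a log2 ratio of -0.32 in vivo. At day 3 both of its FPKM lay above their own deposited upper bounds, so its intervals there are not a guide to its error.

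Of the 5 subunits of the clamp loader, Rfc2 had 2.01, 82.8 and 45.4 FPKM with IL-1β, and 0, 84.4 and 70.8 FPKM without it. Rfc1, Rfc3 and Rfc5 had 17.4, 22.4 and 19.2 FPKM with IL-1β, and 28.0, 38.2 and 28.3 FPKM without it, in vivo. None of these 4 was called. Rfc4 stood apart: it was listed at 0 in vivo with IL-1β, with an interval of 0 to 1.40 FPKM, and had 38.3 FPKM in vivo without it. At day 3 it had 44.3 FPKM with IL-1β and 24.8 FPKM without it, and in both 1 h libraries it was listed at 0. Its entry, chr16:23114021-23127803 on mm9, overlaps that of Eif4a2 by 185 bases, and Eif4a2 had 122 FPKM with IL-1β and 91.5 FPKM without it in vivo. Rfc4 was the 1 gene of that library listed at 0 with at least 20 FPKM in the other 3 poly(A) libraries. No fold is given against that 0, and Rfc4 passed the 2-fold rule with a pseudocount of 0.1 or 5 as well as 1. Without Rfc4 the count called lower in vivo was 11 and the median -0.75.

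The catalytic subunits of the replicative polymerases had low IL-1β ratios at day 3 as well as in vivo. Pole, the catalytic subunit of polymerase epsilon, had 0.13, 7.09 and 7.77 FPKM with IL-1β, and 0, 17.9 and 15.2 FPKM without it. It was called lower at day 3, with a log2 ratio of -1.23, and in vivo its -0.89 was not called. Pold1, of polymerase delta, had 36.7 FPKM with IL-1β and 63.2 FPKM without it at day 3, and 29.0 with and 58.6 FPKM without it in vivo. Pola1, of polymerase alpha, had 8.72 FPKM with IL-1β and 14.5 FPKM without it at day 3, and 5.58 with and 10.1 FPKM without it in vivo. For all 3 catalytic subunits the arms were apart beyond their intervals at both stages. Their transcripts have 7163, 3454 and 5346 bases in the order given, and day 3 ratios went with transcript length, as given below. Other polymerase subunits, outside the 42 genes, had day 3 log2 ratios of 0.89 for Pole2, 1.13 for Pole3 and 0.26 for Pole4. Pold2 had -0.08, Pold3 -0.26 and Pola2 -0.42, and none of these other subunits was called. Fen1, the flap nuclease, had 57.2 FPKM with IL-1β and 57.0 FPKM without it at day 3, and 23.4 with and 44.9 FPKM without it in vivo, a log2 ratio of -0.91.

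Of the genes of nucleotide supply, Rrm2 and Tk1 were called lower in vivo, against 3.48% of all genes, and the median log2 ratio of the 5 was -0.90. Rrm2, the small subunit of ribonucleotide reductase, had 0.45, 201.5 and 88.0 FPKM with IL-1β, and 1.05, 209.1 and 197 FPKM without it, a log2 ratio of -1.15 in vivo. Rrm1, the large subunit, had 0.72, 81.6 and 48.6 FPKM with IL-1β, and 1.67, 86.0 and 91.8 FPKM without it, a log2 ratio of -0.90. The ratio of Rrm2 to Rrm1 was 1.81 with IL-1β and 2.14 without it in vivo, and 2.47 with and 2.43 without it at day 3. Tk1, the thymidine kinase of S phase cells, was listed at 0 in both 1 h libraries and had 110.2 FPKM at day 3 and 30.8 in vivo with IL-1β, and 88.5 and 99.7 FPKM without it. Its log2 ratio was -1.66 in vivo, the lowest of the genes above 0 in both libraries, and 0.31 at day 3. Tk1 overlaps Afmid by 96 bases, and Afmid had 9.42 FPKM with IL-1β and 12.9 FPKM without it in vivo. Dut, which removes dUTP, was also listed at 0 at 1 h and had 109.3 FPKM at day 3 and 42.4 in vivo with IL-1β, and 76.1 and 49.3 FPKM without it. Its IL-1β log2 ratios were 0.52 at day 3 and -0.21 in vivo, and neither was called.

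The chromatin genes had a median log2 ratio of -0.92 in vivo, with 1 of 3 called lower, against 3.48% of all genes. Chaf1a, the large subunit of the histone chaperone CAF-1, was listed at 0 at 1 h and had 28.5 FPKM at day 3 and 13.7 in vivo with IL-1β, and 0.68, 35.1 and 33.2 FPKM without it. Its partner Chaf1b was listed at 0 at 1 h in both arms and had 45.0 and 22.8 FPKM with IL-1β, and 39.1 and 34.7 FPKM without it, at day 3 and in vivo. Uhrf1, which keeps DNA methylation on new strands, had 0.28, 67.8 and 37.4 FPKM with IL-1β, and 0, 87.9 and 71.7 FPKM without it. The log2 ratio of Chaf1a was -1.22 in vivo, and the -0.92 of Uhrf1 and -0.59 of Chaf1b were not called.

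By mean FPKM over the 4 poly(A) libraries the repair genes were the lowest of the set. Of the 4, 2 could be compared in vivo, Fancd2 and Brca1, both called lower, against 3.48% of all genes. Both passed the 5 FPKM filter only through the arm without IL-1β, so these calls are no separate support. With no minimum they were still called, and Exo1 and Brca2 were not. Fancd2, of the Fanconi anaemia pathway of crosslink repair, had 0.20, 3.97 and 2.84 FPKM with IL-1β, and 0, 9.22 and 8.10 FPKM without it. It was the 1 gene called lower at both stages, with log2 ratios of -1.04 at day 3 and -1.25 in vivo. At day 3 too it passed the filter only through the arm without IL-1β. Brca1 had 0.71, 5.83 and 3.81 FPKM with IL-1β, and 0, 8.48 and 8.77 FPKM without it. Below the filter in vivo lay Exo1, an exonuclease, with 0.17, 3.89 and 2.83 FPKM with IL-1β, and 0, 7.39 and 4.74 FPKM without it. Brca2 was below the filter at every stage, with 0.09, 2.87 and 1.23 FPKM with IL-1β, and 0, 3.82 and 3.44 FPKM without it. All 4 were lower in value with IL-1β at both day 3 and in vivo.

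Of the 4 G1/S regulators, the transcription factors E2f1 and E2f2 were called lower in vivo, against 3.48% of all genes, and the cyclins were not. E2f1 had 0.40, 23.9 and 11.9 FPKM with IL-1β, and 0, 31.5 and 29.3 FPKM without it, a log2 ratio of -1.23 in vivo. E2f2 had 0.40, 27.8 and 17.0 FPKM with IL-1β, and 0.93, 34.6 and 36.1 FPKM without it, a log2 ratio of -1.04. Ccne1, cyclin E1, was listed at 0 in both 1 h libraries and had 33.8 and 18.0 FPKM with IL-1β, and 35.6 and 30.6 FPKM without it, at day 3 and in vivo. Ccne2, cyclin E2, was the 1 gene of the 42 with the higher value with IL-1β in vivo, at 5.87 FPKM against 4.91 FPKM without it. Its intervals, 3.59 to 8.08 and 2.54 to 7.15 FPKM, overlapped for most of their length, and its locus overlaps that of Ints8 by 5622 bases.

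**Figure D3:**
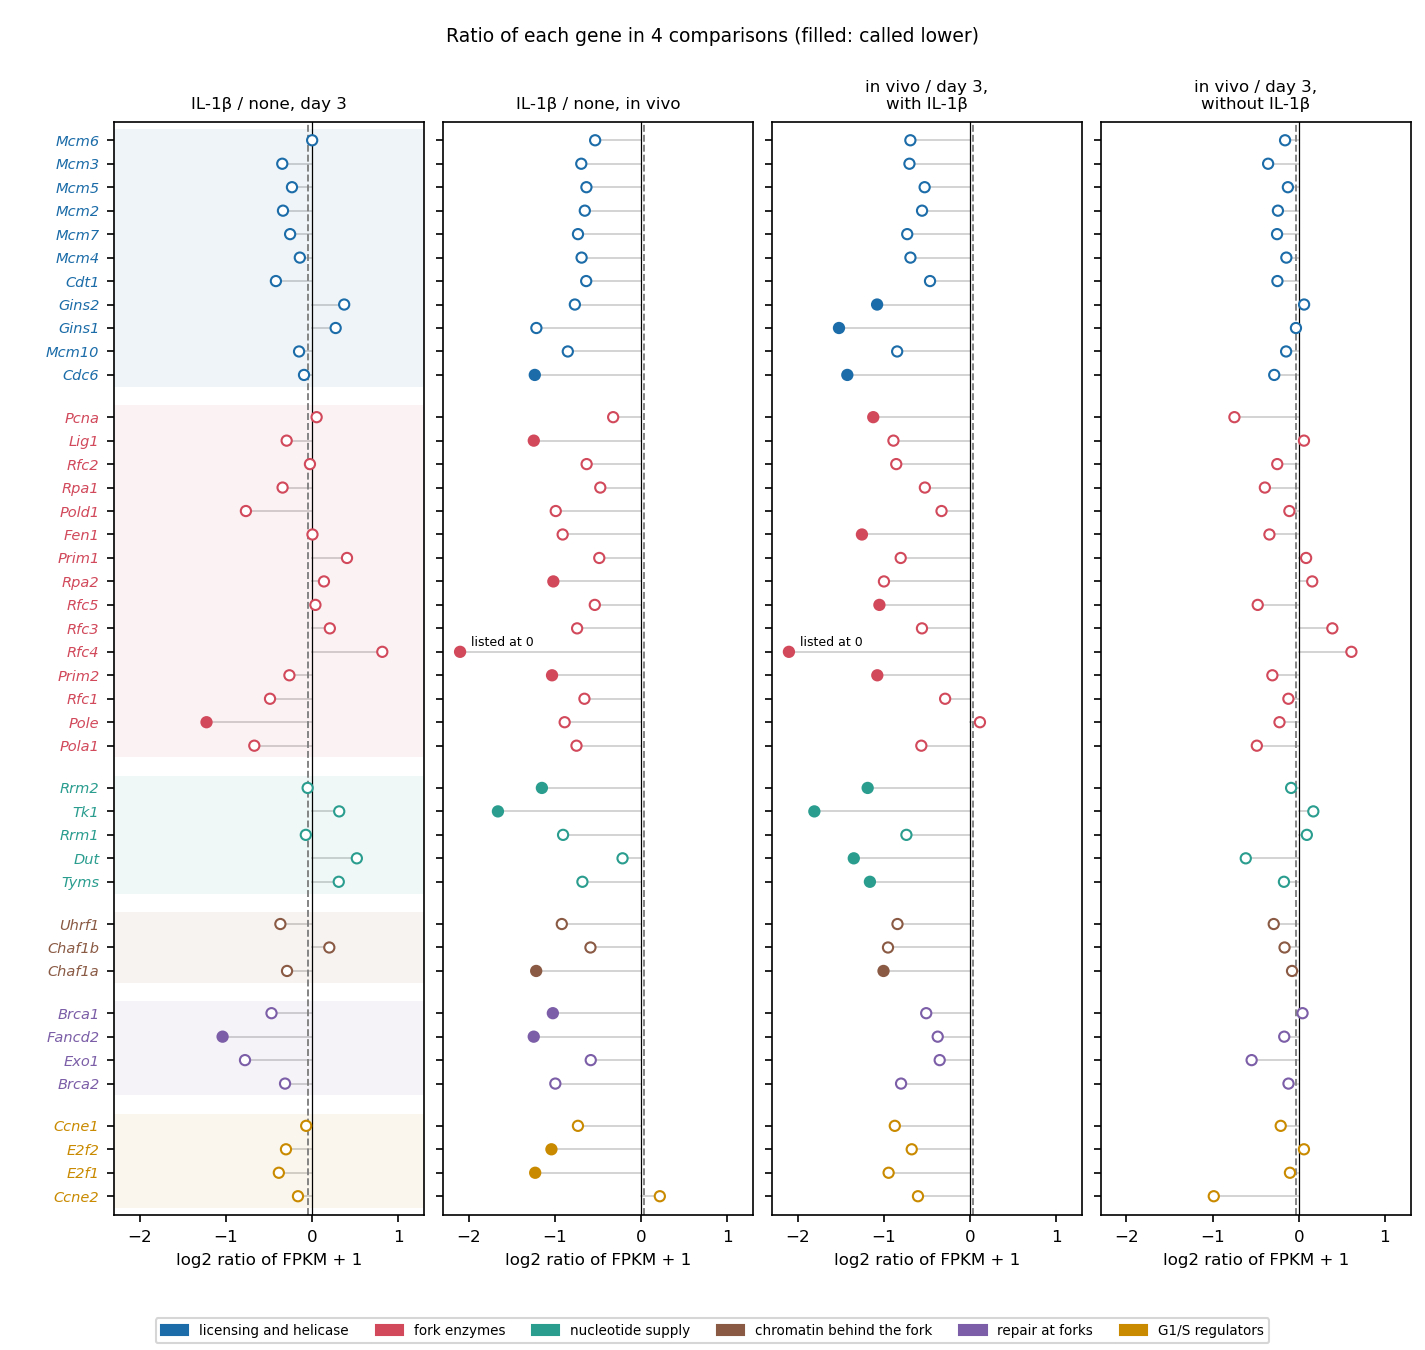
Log2 ratio of FPKM + 1 for each gene (rows, by role) in 4 comparisons (panels), with filled points for genes called lower, open points for genes not called and a dashed line at the median of all genes compared. Rfc4, listed at 0 in vivo with IL-1β, is drawn at the left edge. In vivo, 12 points are filled for IL-1β and the rest but Ccne2 lie left of 0; at day 3 the points lie on both sides of 0 and 2 are filled.

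The panels of ratios for IL-1β show the in vivo difference by role. Role medians ran between -1.13 for repair, from Fancd2 and Brca1 alone, and -0.69 for licensing. Both repair genes passed the 5 FPKM filter only through the arm without IL-1β, so the repair value is no separate support. Within a role the genes could lie further apart: in nucleotide supply they ran between -1.66 for Tk1 and -0.21 for Dut. At day 3 role medians ran between -0.78 for repair and 0.31 for nucleotide supply. The repair value there is that of Exo1, which like Fancd2 passed the filter only through the arm without IL-1β. Setting aside the fold and asking only whether intervals were apart, 29 of 40 genes were lower in vivo with IL-1β, against 8.33% of all genes, and 0 were higher, against 9.91%. At day 3 by that rule 11 of 41 were lower, against 12.7% of all genes, and 2 were higher, against 5.69%.

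The day 3 ratios followed transcript length. Across the 41 genes compared, Spearman's rho between the longest transcript and the IL-1β log2 ratio was -0.67, and across 7240 genes with a length it was -0.58; genes of 1 library pair share that pair, so no p is given. Of the 13 shortest genes, up to 2193 bases, 9 had the higher value with IL-1β and the median log2 ratio was 0.20. Of the 13 longest, 4355 bases or more, 0 did, and the median was -0.34. Pole and Fancd2, the 2 genes called lower at day 3, have transcripts of 7163 and 5512 bases. With the length trend of all genes removed, 0 of the replication genes were called, against 0.947% of all genes lower and 1.11% higher. In vivo rho was -0.04 across 40 genes and -0.01 across all 7884 genes with a length. With the trend removed, 13 replication genes were called lower there, against 3.56% of all genes.

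**Figure D4:**
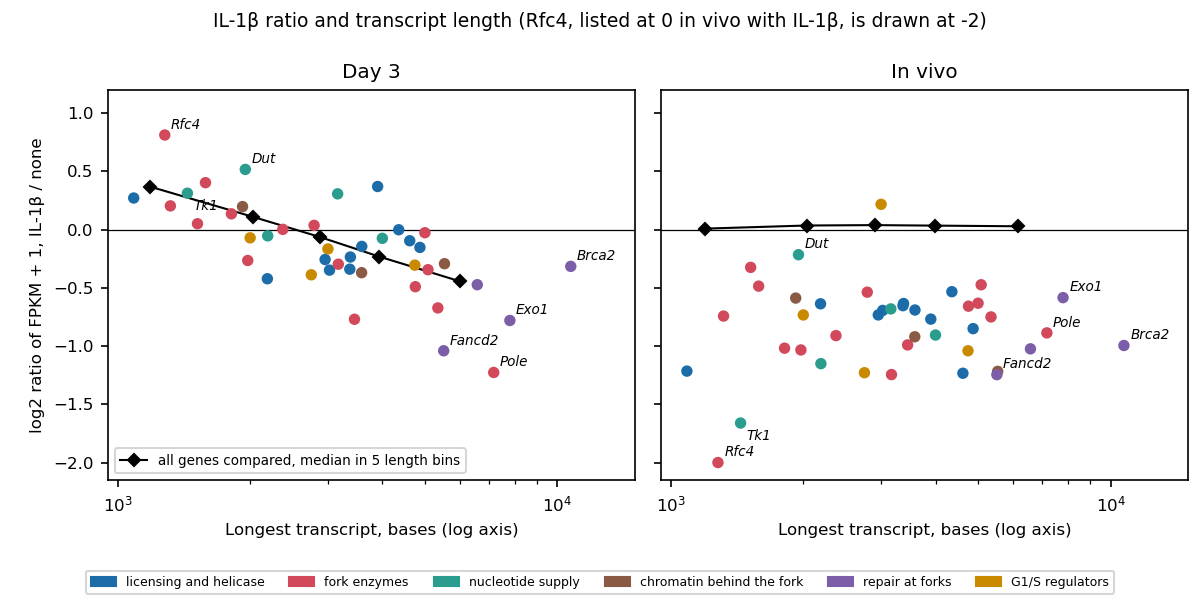
Log2 ratio of FPKM + 1 with over without IL-1β (vertical axis) against the longest transcript in bases (log axis) for the 42 genes at day 3 and in vivo, with the median of all genes compared in 5 length bins (black diamonds). At day 3 the genes go down with length, as does the line of all genes. Pole and Fancd2, at -1.23 and -1.04, lie below its longest bin, at -0.44. In vivo the line is flat and the genes, all but Ccne2, lie below it.

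In the plot against transcript length, the day 3 points go down with length, as does the trend of all genes. There the median of all genes was 0.37 in the shortest of 5 length bins and -0.44 in the longest, and in vivo every bin lay between 0.01 and 0.04. Over the 42 genes, rho between the IL-1β ratios of these stages was 0.12, and over 41 without Rfc4 it was 0.20.

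Other lists of the cell cycle stood beside the 42 genes in vivo. There 3.48% of all 8639 genes compared were called lower with IL-1β and 6.23% higher. Of 40 other replication genes compared, 7 were called lower with IL-1β and 0 higher, and their median log2 ratio was -0.59. Among them were Gmnn, the geminin that holds Cdt1 in check, Orc6, a subunit of the origin recognition complex, Clspn and Timeless. Gmnn had 23.3 FPKM with IL-1β and 54.1 FPKM without it. Of 19 other E2F and G1/S regulators, Ccna2, the cyclin A of S phase, and Cdk6 were called lower, the first with 42.5 FPKM in the IL-1β arm and 120 FPKM without it, and the median was -0.55. Of 12 mitosis genes 11 were called lower, with a median of -1.31: Mki67 had 25.3 FPKM with IL-1β and 73.7 FPKM without it, and Ccnb2, a mitotic cyclin, 26.5 with and 86.0 FPKM without it. Bub1 was the 1 mitosis gene not called.

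Of the 10 cell cycle inhibitors compared in vivo, 2 were called higher with IL-1β, against 6.23% of all genes, and 0 lower, against 3.48%, and the median log2 ratio was 0.67. Klf2, a transcription factor, had 180.6 FPKM with IL-1β and 68.0 FPKM without it, and Tob1, an antiproliferative protein, 33.2 with and 14.2 FPKM without it. The part of RNA from other cells in these values was not tested. Foxo1, a transcription factor, had 31.8 FPKM with IL-1β and 31.6 FPKM without it. The inhibitors Cdkn2c and Cdkn2d had the lower value with IL-1β, at 8.69 and 63.7 FPKM against 18.3 and 81.7 FPKM without it, and neither was called. Of 6 S phase checkpoint genes, the kinase Chek1 was called lower, with 6.24 FPKM in the IL-1β arm and 13.6 FPKM without it. Rad9 was called higher but was listed at 0 in vivo without IL-1β and at day 3 with it, and no ratio is given for it. At day 3, 0 of 42 other replication genes, 0 of 12 mitosis genes and 0 of 10 inhibitors were called, and their medians were 0.04, -0.24 and 0.07. Of all genes, 2.15% were called lower there and 1.29% higher. Cdk6, a kinase of G1, was the 1 gene of 18 other E2F and G1/S regulators called lower there, with 7.48 FPKM in the IL-1β arm and 16.8 FPKM without it.

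**Figure D5:**
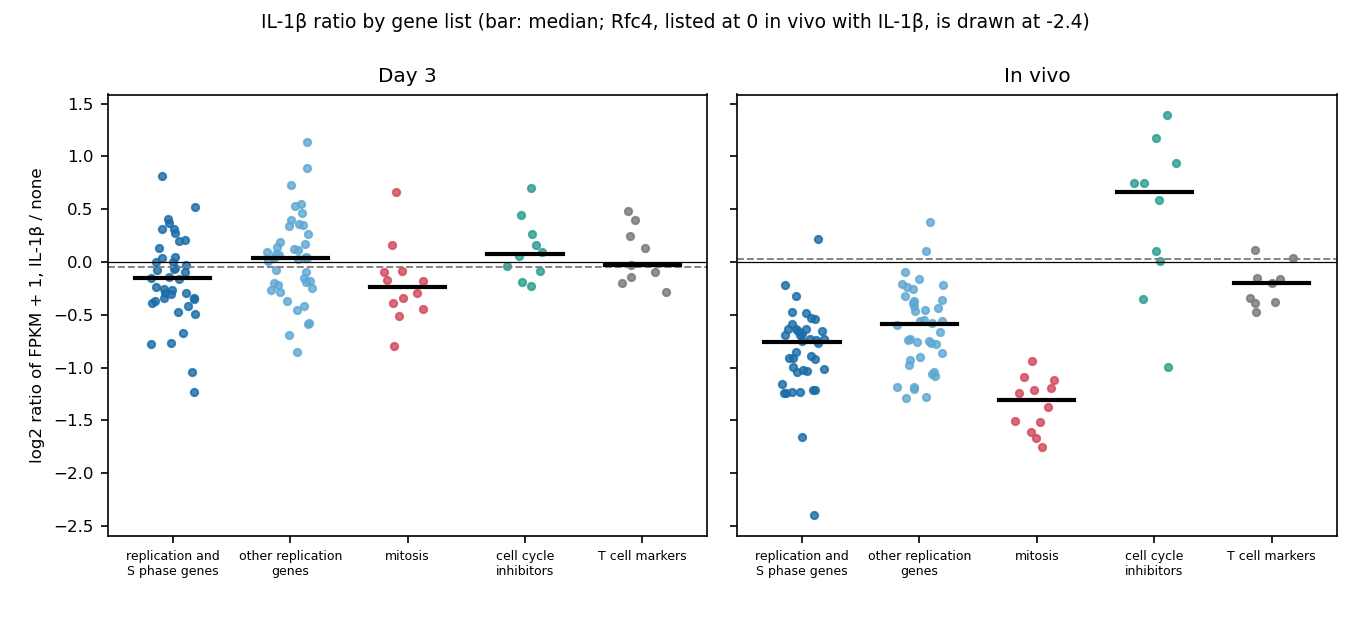
Log2 ratio of FPKM + 1 with over without IL-1β (vertical axis) for each compared gene of 5 lists at day 3 and in vivo (points; black bars are list medians, the dashed line is the median of all genes compared). In vivo the mitosis genes and most genes of both replication lists lie below 0, the inhibitors mostly above it and T cell markers between; at day 3 the list medians lie between -0.24 and 0.07.

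As the plot by gene list shows, the T cell markers had a median nearer 0 than the replication genes in vivo. Of the 9 markers, 0 were called, against 3.48% of all genes lower and 6.23% higher. Their median log2 ratio was -0.20, and they summed to 2238 FPKM with IL-1β and 2720 FPKM without it. Of the 11 markers of epithelium and stroma, 9 of 10 compared were called higher in vivo with IL-1β, against 6.23% of all genes. At day 3 the 11 summed to 27.6 FPKM with IL-1β and 30.3 FPKM without it. Most of their sum in vivo was Sftpc, the surfactant protein of lung epithelium, with 10010.5 FPKM in the IL-1β arm and 3512 FPKM without it. Of the 11 myeloid markers, 3 of 8 compared were called higher in vivo, against 6.23% of all genes. None of either list was at 0 in either in vivo library. The 5 B cell markers summed to 26.4 FPKM with IL-1β and 42.5 FPKM without it. The 7 replication genes called lower in vivo with the libraries scaled to the T cell markers were Cdc6, Chaf1a, E2f1, Fancd2, Lig1, Rfc4 and Tk1.

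At day 3 against 1 h the replication genes were called higher together with most other genes. Of 39 genes compared with IL-1β, 39 were called higher at day 3, against 95.5% of all genes, and of 41 without it 41, against 95.7%, so these counts say nothing particular to the set. None was called lower, against 0.595% of all genes with IL-1β and 0.299% without it. With many genes listed at 0 at 1 h, no size of change is given. The kit that selected the RNA changed between those stages, and stage and kit cannot be told apart.

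In vivo against day 3, replication genes were called lower in the arm with IL-1β. There 13 of 39 were called lower in vivo, against 5.87% of all genes, and 0 higher, against 12% of all genes, and the median log2 ratio was -0.84. Without IL-1β, 0 of 41 genes were called, against 0.665% of all genes lower and 2.13% higher, and the median was -0.16. With 1 library in a group, the difference between the arms was not tested. The 13 were Cdc6, Gins1, Gins2, Pcna, Fen1, Rfc4, Rfc5, Prim2, Rrm2, Tk1, Tyms, Dut and Chaf1a. Tk1 had 30.8 FPKM in vivo against 110.2 FPKM at day 3 with IL-1β, and 99.7 FPKM in vivo against 88.5 FPKM at day 3 without it. Dut had 42.4 FPKM in vivo against 109.3 FPKM at day 3 with IL-1β, and Pcna 105.2 FPKM against 230.0 FPKM. Without IL-1β, Pcna had 131.9 FPKM in vivo against 221.9 FPKM at day 3, and Dut 49.3 against 76.1 FPKM, log2 ratios of -0.75 and -0.61 that were not called. Of the genes of nucleotide supply 4 of 5 were called lower with IL-1β, Tyms, the thymidylate synthase, among them at 12.4 FPKM in vivo against 28.9 FPKM at day 3. Pole, by contrast, had 7.77 FPKM in vivo and 7.09 FPKM at day 3 with IL-1β, a log2 ratio of 0.12. The ratios with IL-1β went with transcript length here too: rho was 0.52 over the 39 genes and 0.36 over 7814 genes, and the median was -1.07 for the 13 shortest and -0.69 for the 13 longest. With the length trend removed 12 were called lower, against 4.48% of all genes. These comparisons share libraries with those for IL-1β, so they are no separate evidence. By intervals alone, 31 of 39 were lower in vivo with IL-1β, against 14.1% of all genes, and 0 higher, against 20.8%, and 5 of 41 were lower without it, against 3.51%, and 0 higher, against 3.1%. Scaled to the T cell markers, 7 of the 13 were called, against 3.51% of all genes lower. With equal upper quartiles 5 were called (Cdc6, Dut, Fen1, Rfc4 and Tk1), against 3.1%.

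The one test that the design allows asks for an IL-1β difference common to the 3 stages. Fitted with limma across 8946 genes with stage as a covariate and 2 residual degrees of freedom, 0 genes were called at an adjusted p of 0.05, the smallest adjusted p being 0.937, and 320 had an unadjusted p under 0.05. Of the 42 genes 41 were tested, 32 had a negative coefficient and the median was -0.24, against 0.06 over all genes. These coefficients take in the 1 h values, many of them listed at 0, from which nothing is read. Mcm2, Mcm4, Rfc2 and Rpa1, listed at 0 at 1 h without IL-1β, had positive coefficients. Their log2 ratios at day 3 and in vivo were negative. Chaf1a had the 1 unadjusted p under 0.05, with a log2 difference of -0.75, a 95% interval of -1.49 to -0.01 and an adjusted p of 0.937 in limma. At 1 h Chaf1a was listed at 0 with IL-1β and had 0.68 FPKM without it. This p and interval therefore rest in part on a value from which nothing is read. Without the 1 h stage its log2 difference was -0.75 and its unadjusted limma p was 0.0668. Without the 1 h stage the fit left 1 residual degree of freedom. There 34 of 8901 genes were called, or 0.382%, 0 of them among the 42. Of the 41 tested, 39 had a negative coefficient, and Fancd2 had the smallest limma adjusted p at 0.372.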

How the data were processed

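RNA was sequenced on a MiSeq from 6 libraries. Reads were aligned with TopHat to mm9, per the submitters' processing notes; the sources used here name neither the tool that made the values nor the level of the intervals. The deposited values are FPKM per gene with bounds, per the file headers, and were used as deposited. Of 23700 entries per file, 285 with a status other than OK were left out, and entries of a symbol were summed with their bounds. Gene coordinates are the files' own, on mm9 and counted from 1. Depth is unknown.

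The 7 comparisons took 2 libraries each: IL-1β against none at each of 3 stages and, per arm, the later of 2 neighbouring stages against the earlier. limma 3.58.1 in R 4.3.3 ran on log2 of FPKM + 1 with Benjamini-Hochberg adjustment. The rest ran in Python 3.11.15 (matplotlib 3.10.9, statsmodels 0.14.6, pandas 2.3.3, scipy 1.17.1, numpy 2.4.6). The rules were tested on simulated data. Lengths are those of the longest protein-coding transcript in GENCODE M21, and their trend was fitted by lowess (fraction 0.3). Values in every library are given for the 4 highest genes of each role, those called at 1 h or day 3, and those whose call in vivo differed from most of their role; genes given beyond this were chosen after their values were seen. The genes, lists, tests and alternatives were chosen with earlier results of these data known. Alternatives were pseudocounts of 0.1 and 5, no minimum or a minimum of 1 FPKM, no interval rule, intervals alone, scaling by the median ratio, upper quartiles or T cell markers, removal of the length trend, the largest entry of a symbol, and leaving out Rfc4.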

Additional observations from a re-analysis of the deposited data

Results flagged for a closer look

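Rfc4, the clamp loader subunit, differed between the arms in opposite directions at the 2 later stages. The value with IL-1β minus that without it was 19.5 FPKM at day 3 and -38.3 FPKM in vivo. In vivo minus day 3, the difference was -44.3 FPKM with IL-1β and 13.6 FPKM without it. Each group is 1 library, so these differences were not tested, and the values below 0 rest on an FPKM listed at 0 in vivo with IL-1β. The other 3 poly(A) libraries lay between 24.8 and 44.3 FPKM. Rfc4 shares 185 bases of its locus with Eif4a2, and the part of that overlap in the 0 was not tested.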

How the results depend on the processing

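Of the counts and medians over the 42 genes, 197 values under an alternative stayed within the limits set for them and 31 moved. For a median the limit was the median half-width of the genes' log2 ratios, 0.36 for IL-1β at day 3 and 0.47 in vivo. The day 3 limit is wider than the distance of the day 3 median, -0.15, from 0. Counts of 0 that stayed at 0 are among the 197. For IL-1β at 1 h, 3 genes (Mcm2, Mcm4 and Rpa1, all listed at 0 without IL-1β) were called higher with no minimum and 3 with a minimum of 1 FPKM. The shares of all genes were 4.36% and 7.14%. At day 3, 0 were called lower with a pseudocount of 5 and 0 with the length trend removed, and with intervals alone 11 lower and 2 higher. In that order the shares of all genes were 0.502%, 0.947%, 12.7% and 5.69%. In vivo the 12 lower became 6 with a pseudocount of 5, 7 scaled to T cell markers and 29 with intervals alone. Of all genes 1.91%, 2.22% and 8.33% were called lower in that order, against 3.48%. Chaf1a, E2f1, Lig1, Rfc4, Rrm2 and Tk1 were called under every alternative but those chosen after seeing the data. For in vivo against day 3, genes called lower with IL-1β were 8 with a pseudocount of 5, 5 with equal upper quartiles, 7 scaled to T cell markers and 31 with intervals alone, against 13. The shares of all genes were 3.95%, 3.1%, 3.51% and 14.1%. Without IL-1β, 1 gene was called lower with a pseudocount of 0.1 and 5 with intervals alone, against 0. Of all genes 0.861% and 3.51% were. For day 3 against 1 h, where the values listed at 0 and the pseudocount set the median, it was 6.58 with IL-1β and 7.86 without it at a pseudocount of 0.1, and 3.20 and 3.16 at 5. Scaling, which lowers the day 3 values so that fewer genes pass the minimum, left 17 called with a median of 2.34 with IL-1β and 17 with 3.12 without it by the median ratio, 16 with 2.25 and 19 with 3.24 by upper quartiles, and 15 with 2.82 and 15 with 2.77 with the length trend removed. These centre a shift of all genes of 3.18 with IL-1β and 3.31 without it. The shares of all genes called higher were 60.3% with IL-1β and 54.5% without it by the median ratio. They were 55.4% and 58.2% by upper quartiles, and 46.9% and 43.1% with the length trend removed. Single genes were recomputed only where called, and of those, signs turned in that comparison with IL-1β: Brca1 to -0.053 and -0.14 by median and quartile scaling, Cdt1 to -0.093 and Pcna to -0.027 with the length trend removed. Scaling to T cell markers, intervals alone and leaving out Rfc4 were chosen after seeing the data. No paired analysis was possible by replicate number because each group holds 1 library and the labels give no such numbers; the limma fit, with stage as a covariate, sets the arms against each other within stages. Depth is unknown, so no limit goes with a value of 0.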
